A study of Mus musculus with 17 samples.

Results

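The genes described here are the small nuclear, small nucleolar and small Cajal body RNA genes that could be measured in mouse hearts after pressure overload. They are the genes of GENCODE type snoRNA, scaRNA or snRNA with at least 10 fragments in 3 or more of 17 libraries. This rule gave 129 members out of 2907 genes of these types and 41126 genes of all types. They comprised 28 Snora genes, 16 Snord genes, 53 other snoRNA genes, 13 scaRNA genes and 19 snRNA genes. Among the other snoRNA genes, 49 carry only a predicted gene name. Scarna9 and Scarna10 are counted in this class and not as scaRNA, because GENCODE gives them the type snoRNA. A further gene, Gm22213, was left out because the authors' tool had marked it as holding too many fragments to count.

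Total RNA came from hearts of C57BL/6 mice fed normal chow under a light cycle of 12 h on and 12 h off, with hearts taken near zeitgeber hour 10. Transverse aortic constriction (TAC) narrows the aorta and makes the left ventricle pump against pressure. SR9009 is an agonist of REV-ERB alpha and beta, transcriptional repressors of the circadian clock. The groups were TAC 6 week SR9009 (n = 3), TAC 6 week vehicle (n = 3), TAC 1 week SR9009 (n = 4), TAC 1 week vehicle (n = 4) and Control (n = 3), with vehicle or SR9009 given daily. The labels name no mutant allele or transgene, no sex and no age. They do not say whether Control mice had a sham operation or received vehicle, and no Control group belongs to each time. Time under load, age and length of dosing therefore cannot be told apart between the times. Nothing in the labels says that libraries of a group came from separate mice. The p-values therefore reflect the spread among libraries, part of which may be technical.

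As background, H/ACA snoRNAs (named Snora) pair with target RNA to guide pseudouridylation, and C/D snoRNAs (named Snord) guide ribose methylation, mostly of ribosomal RNA. Most lie in introns of other genes and are released when the intron is spliced out and trimmed. ScaRNAs carry the same boxes but stay in Cajal bodies and guide modification of the spliceosomal snRNAs, which form the RNA core of the splicing machinery. The U3 RNA and the Snora73 RNAs act in the cleavage of the ribosomal RNA precursor rather than as modification guides. Growth of heart muscle under load is known to come with more ribosome production.

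The transcript sequences of 13 members are given as annotated in GENCODE M21 on GRCm38 (mm10), written as DNA letters. Capitals mark an ACA within the last 6 bases, the C box TGATGA within the first 25 bases with the D box CTGA within the last 15 bases, or, in snRNA genes, the Sm-site letters ATTTTTG. Only the transcript strand was searched, and C and D boxes were marked only where both were found. Rnu3a held CTGA in its last 15 bases but no TGATGA in its first 25, so it has no capitals. Gm22513 held no ATTTTTG. The first set holds the 7 members in which the SR9009 difference at 6 weeks differed from that at 1 week, followed by Gm24407, the close copy of Gm24265.

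Gm26448: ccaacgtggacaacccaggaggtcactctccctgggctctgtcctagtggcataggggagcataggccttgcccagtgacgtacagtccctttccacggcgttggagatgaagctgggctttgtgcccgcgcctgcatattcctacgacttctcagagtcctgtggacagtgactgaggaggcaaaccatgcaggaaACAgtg

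Gm24119: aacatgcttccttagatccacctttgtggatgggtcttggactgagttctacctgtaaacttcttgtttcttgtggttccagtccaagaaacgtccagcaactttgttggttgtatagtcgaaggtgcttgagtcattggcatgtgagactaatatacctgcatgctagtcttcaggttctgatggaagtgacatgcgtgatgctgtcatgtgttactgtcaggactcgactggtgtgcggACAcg

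Gm25395: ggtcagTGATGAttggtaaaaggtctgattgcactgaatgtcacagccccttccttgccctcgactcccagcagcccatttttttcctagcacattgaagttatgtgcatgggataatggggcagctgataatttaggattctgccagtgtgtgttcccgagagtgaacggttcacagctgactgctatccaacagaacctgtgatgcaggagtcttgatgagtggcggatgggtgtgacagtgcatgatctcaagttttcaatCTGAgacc

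Scarna6: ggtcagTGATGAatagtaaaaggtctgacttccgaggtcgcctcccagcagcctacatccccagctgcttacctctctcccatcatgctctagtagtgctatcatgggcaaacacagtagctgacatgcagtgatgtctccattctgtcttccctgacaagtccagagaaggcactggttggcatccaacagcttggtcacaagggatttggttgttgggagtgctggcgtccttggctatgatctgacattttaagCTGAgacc

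Rnu3a: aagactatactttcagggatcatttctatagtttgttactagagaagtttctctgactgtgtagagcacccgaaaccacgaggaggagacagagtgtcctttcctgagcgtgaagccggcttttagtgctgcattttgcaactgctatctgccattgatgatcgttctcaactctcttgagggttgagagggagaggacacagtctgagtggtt

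Rnu12: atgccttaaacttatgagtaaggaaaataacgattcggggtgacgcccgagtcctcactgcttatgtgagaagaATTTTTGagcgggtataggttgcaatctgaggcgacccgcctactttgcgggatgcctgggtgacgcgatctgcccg

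Gm24265: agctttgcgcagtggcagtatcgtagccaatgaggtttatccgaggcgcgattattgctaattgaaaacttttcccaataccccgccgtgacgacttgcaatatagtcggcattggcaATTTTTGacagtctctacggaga

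Gm24407: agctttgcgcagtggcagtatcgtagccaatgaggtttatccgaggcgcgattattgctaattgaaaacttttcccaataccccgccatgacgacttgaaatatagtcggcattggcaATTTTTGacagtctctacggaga

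Gm26448 (chr9:120129351-120129553, plus strand) lies in an intron of Rpsa, which encodes a protein of the small ribosomal subunit. Gm24119 (chr10:91118291-91118536, minus strand) lies in an intron of Slc25a3, the mitochondrial phosphate carrier. Gm25395 (chr1:87776938-87777209, plus strand) and Scarna6 (chr1:87784556-87784820, plus strand) lie in introns of the autophagy gene Atg16l1, both hold a C and a D box, and differ by 105 base edits. Rnu3a (chr10:40258467-40258680, plus strand), a U3 gene, Rnu12 (chr15:83149644-83149794, plus strand), the U12 gene of the minor spliceosome, and Gm24265 (chr5:115489459-115489599, plus strand) have no host gene on the same strand. Gm24407 (chr5:115490254-115490394, plus strand) differs from Gm24265 at 2 positions, G88A and C99A, counted from the 5′ end of Gm24265. Fragments of such near copies may be split between them, and another annotated Rnu3a gene lies 1 edit away.

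The second set holds the 2 members that rose at 1 week, Snord17 and Snora73a as C/D and H/ACA members with high levels, and Gm22513, whose level differed widely within groups.

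Gm25360: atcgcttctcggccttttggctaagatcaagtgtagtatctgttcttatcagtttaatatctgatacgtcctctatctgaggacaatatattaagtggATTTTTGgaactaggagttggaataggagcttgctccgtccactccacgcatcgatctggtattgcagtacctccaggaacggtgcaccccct

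Gm22973: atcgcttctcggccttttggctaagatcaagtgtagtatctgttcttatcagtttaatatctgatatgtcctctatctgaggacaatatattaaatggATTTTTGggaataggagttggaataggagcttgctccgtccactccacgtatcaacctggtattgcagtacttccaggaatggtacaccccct

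Snord17: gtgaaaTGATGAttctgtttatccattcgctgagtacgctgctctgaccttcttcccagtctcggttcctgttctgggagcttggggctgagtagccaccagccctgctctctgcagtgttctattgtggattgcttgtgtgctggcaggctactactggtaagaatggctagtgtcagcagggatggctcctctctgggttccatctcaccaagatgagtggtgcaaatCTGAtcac

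Snora73a: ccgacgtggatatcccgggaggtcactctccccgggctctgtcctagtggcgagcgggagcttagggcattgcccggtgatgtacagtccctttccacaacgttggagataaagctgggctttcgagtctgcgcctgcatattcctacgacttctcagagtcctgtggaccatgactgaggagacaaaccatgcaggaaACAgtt

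Gm22513: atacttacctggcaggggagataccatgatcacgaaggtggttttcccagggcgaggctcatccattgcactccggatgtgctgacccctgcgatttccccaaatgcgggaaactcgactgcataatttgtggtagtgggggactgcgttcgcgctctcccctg

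Gm25360 (chr1:72226240-72226430, plus strand) and Gm22973 (chr12:59040335-59040525, plus strand) have the same length, 191 bases, and differ at 10 positions. Gm25360 has 10 annotated genes within 5 edits, and Gm22513 (chr12:54696782-54696945, plus strand) has 14. Snord17 (chr2:144265979-144266216, minus strand) lies in an intron of Snx5, and Snora73a (chr4:132352775-132352979, minus strand) in an intron of Rcc1 beside its copy Snora73b, 7 edits away. Gm26448 is 24 edits from Snora73a, its nearest annotated gene.

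The sequences followed their class names. An ACA near the end was found in 26 of 28 Snora members and 40 of 53 other snoRNA members, against 45.8% of all annotated snoRNA genes. C and D boxes were found in 13 of 16 Snord members, against 20.3% of all annotated snoRNA genes. Of the scaRNA members, 7 had the ACA end and 4 had both C and D boxes. The Sm-site letters stood in 10 of 19 snRNA members and in 3.3% of all annotated snRNA genes. Member lengths ran from 70 to 414 bases with a median of 136. Among annotated snoRNA and scaRNA genes, 2.83% of those under 100 bases became members, against 41.94% of those of 200 bases or more.

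All 129 member sequences were unique in the annotation, but 28 lay within 5 edits of another gene. A host gene on the same strand contained 104 members, 18 of them in ribosomal protein genes. Of these 104, 60 lay wholly outside annotated host exons and 44 touched one, so fragments of the host transcript and of the small RNA cannot be told apart in the 44. The labels name the Illumina TruSeq RNA kit, which does not mark strand, and 1 μg of total RNA for each library. How fully this preparation kept RNAs of these lengths, or RNAs without a poly(A) tail, and whether evenly between libraries, was not tested. Counts of members therefore describe the fragments recovered, and the amount of these RNAs in the heart was not measured. For members in introns, small RNA and unspliced host RNA cannot be told apart by these counts.

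The 10 cardiomyocyte markers summed to 62352 to 65474 CPM (counts per 1000000 fragments of the library total, 1 M) in TAC 6 week SR9009, 53974 to 61373 in TAC 6 week vehicle, 47811 to 65563 in TAC 1 week SR9009, 54371 to 65354 in TAC 1 week vehicle and 68078 to 70186 in Control. The 8 macrophage markers summed to 285 to 335 CPM in TAC 6 week SR9009, 372 to 426 in TAC 6 week vehicle, 403 to 637 in TAC 1 week SR9009, 386 to 481 in TAC 1 week vehicle and 269 to 281 in Control, and 6 of the 8 rose at 6 weeks of vehicle against Control. The 7 fibroblast markers summed to 1249 to 1474 CPM in TAC 6 week SR9009, 1650.2 to 2560.4 in TAC 6 week vehicle, 1604 to 4457 in TAC 1 week SR9009, 1476 to 2744 in TAC 1 week vehicle and 1084 to 1119 in Control, and 3 of the 7 rose at 6 weeks of vehicle against Control. The 5 mesothelial markers summed to 9.6 to 24.6 CPM in TAC 6 week SR9009, 11.7 to 19.0 in TAC 6 week vehicle, 31.6 to 53.1 in TAC 1 week SR9009, 47.8 to 58.8 in TAC 1 week vehicle and 60.8 to 73.7 in Control, and 4 of the 5 fell at 6 weeks of vehicle against Control. With SR9009 against vehicle at 6 weeks edgeR called 0 of these markers, but the macrophage markers were lower in 8 of 8 (median log2 difference -0.33, 5 at an unadjusted p under 0.05) and the fibroblast markers in 6 of 7 (median -0.34, 4 at an unadjusted p under 0.05). The cardiomyocyte markers were higher in 9 of 10 (median 0.15, 1 at an unadjusted p under 0.05) and the mesothelial markers in 4 of 5 (median 0.49, 0 at an unadjusted p under 0.05). No marker of these lists was at 0 in any library, and their part in the results was not tested. In bulk hearts, fewer cells of a type and less RNA per cell cannot be told apart.

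Library totals over counted genes ran from 8.474 to 15.498 M fragments and differed between groups: 9.692 to 13.35 M in TAC 6 week SR9009, 13.075 to 15.498 in TAC 6 week vehicle, 10.774 to 13.366 in TAC 1 week SR9009, 8.474 to 12.281 in TAC 1 week vehicle and 9.453 to 9.901 in Control. Fragments on the members differed less. They numbered 24777, 21338 and 22711 in TAC 6 week SR9009, 18066, 16910 and 20290 in TAC 6 week vehicle, 18258, 19510, 20021 and 18254 in TAC 1 week SR9009, 14468, 16222, 16101 and 18879 in TAC 1 week vehicle, and 19564, 19736 and 17886 in Control. The TAC 6 week SR9009 libraries held the 3 highest member counts of all 17, while TAC 6 week vehicle and Control overlapped in fragments and differed in library total.

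**Figure D1:**
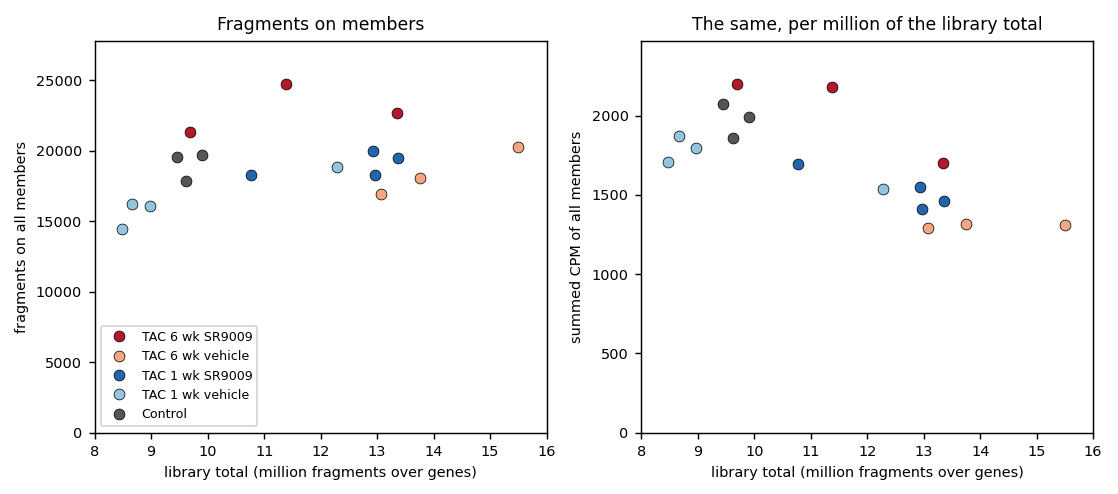
Fragments on the 129 members (left) and the same scaled to the library total (right, summed CPM) against the library total in M fragments, 1 point per library, coloured by group. Member fragments lie between 14468 and 24777 over library totals of 8.474 to 15.498 M, and the 3 TAC 6 week SR9009 libraries lie highest on the left.

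Scaled to the library total, the members summed to 2177, 2202 and 1701 CPM in TAC 6 week SR9009, 1313, 1293 and 1309 in TAC 6 week vehicle, 1695, 1459.6, 1548 and 1408 in TAC 1 week SR9009, 1707, 1874, 1795 and 1537 in TAC 1 week vehicle, and 2069.7, 1993 and 1859 in Control. TAC 6 week vehicle lay below every other library, and TAC 6 week SR9009 overlapped Control. The members made up 0.1701% to 0.2202% of the library in TAC 6 week SR9009, 0.1293% to 0.1313% in TAC 6 week vehicle and 0.1859% to 0.207% in Control. At matched depth, between 12 and 14 M fragments, the 1 TAC 6 week SR9009 library held 22711 member fragments, against 16910 and 18066 in the 2 TAC 6 week vehicle libraries. Of the 40 members with a mean of at least 10 CPM, 37 had a higher CPM in that library than in both TAC 6 week vehicle libraries and 0 were lower than both, with a median log2 ratio of 0.44. Of all 129 members, 86 were higher and 15 were lower than both, with a median log2 ratio of 0.32. Over all libraries of these groups the median log2 difference was larger, at 0.80 for the 40 and 0.79 for the 128 members tested. For the counts at matched depth, the share over all genes was not computed, and 1 library gives no measure of spread.

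Every class had its lowest mean in TAC 6 week vehicle. Snora members summed to 504 ± 44.1 CPM in TAC 6 week SR9009 and 359 ± 30.6 in TAC 6 week vehicle, with 377 ± 24.7 in TAC 1 week SR9009, 405 ± 36.6 in TAC 1 week vehicle and 478 ± 16.9 in Control (mean ± SD over libraries, as for the classes that follow). Snord members summed to 200.7 ± 54.7 CPM in TAC 6 week SR9009, 113 ± 3.41 in TAC 6 week vehicle, 116 ± 13.5 in TAC 1 week SR9009, 129 ± 20.1 in TAC 1 week vehicle and 152 ± 3.81 in Control. The other snoRNA members summed to 690.0 ± 129 CPM in TAC 6 week SR9009, 383 ± 19.9 in TAC 6 week vehicle, 484 ± 62.0 in TAC 1 week SR9009, 567 ± 68.2 in TAC 1 week vehicle and 661 ± 49.98 in Control. In these 3 classes every TAC 6 week SR9009 library lay above every TAC 6 week vehicle library.

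The scaRNA members showed the smallest ratio between the 6-week groups, with 310.1 ± 26.2 CPM in TAC 6 week SR9009, 269 ± 7.96 in TAC 6 week vehicle, 294 ± 8.62 in TAC 1 week SR9009, 319 ± 15.1 in TAC 1 week vehicle and 344 ± 8.63 in Control. The snRNA members summed to 322 ± 83.2 CPM in TAC 6 week SR9009, 182 ± 17.4 in TAC 6 week vehicle, 257 ± 22.8 in TAC 1 week SR9009, 309 ± 30.8 in TAC 1 week vehicle and 339 ± 33.3 in Control. In both classes every TAC 6 week vehicle library lay below every other library. A few genes carry each sum: Gm22009 alone held 43.4% of the scaRNA fragments, and 3 genes held 75.9% of the Snora and 85.6% of the Snord fragments. The snRNA sum includes Gm22513, which averaged 34.0 CPM but ranged from 8 to 638 fragments between libraries and varied widely within groups. Differences in the snRNA sum therefore include this gene, and the sum without it is not given.

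**Figure D2:**
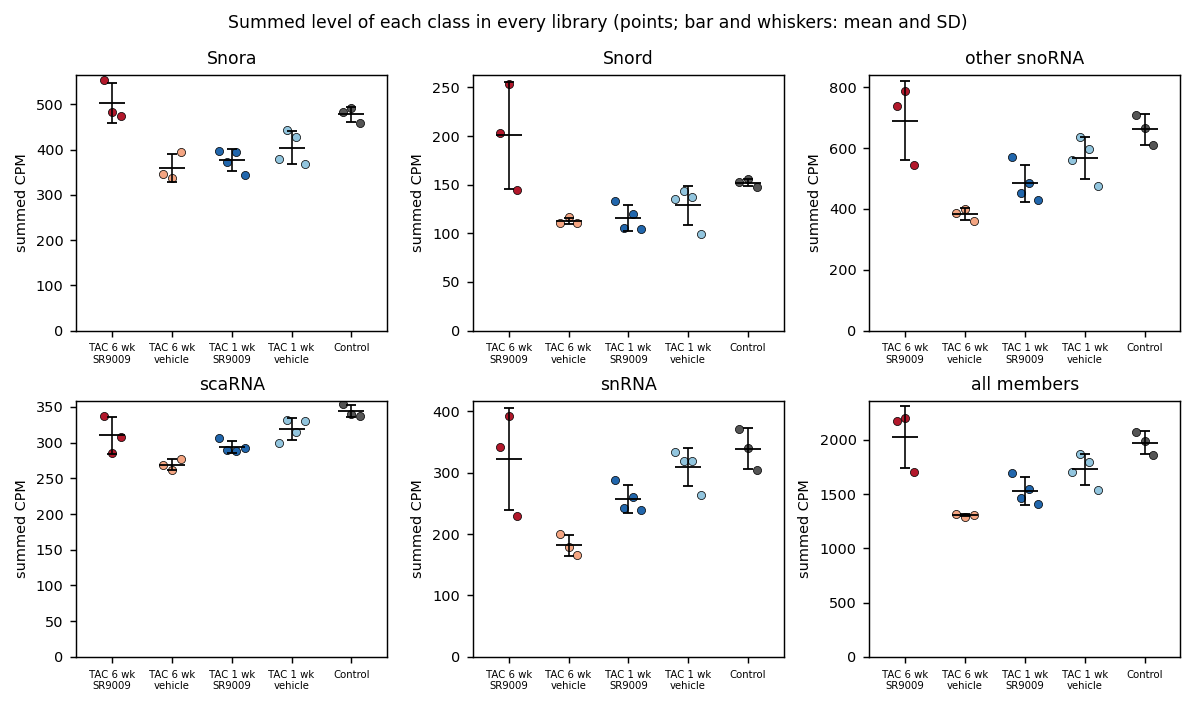
Summed CPM of each class and of all 129 members in every library (points), by group, with the mean and SD. The TAC 6 week vehicle libraries lie lowest in the panel of all members, at 1293 to 1313 CPM.

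Levels per length put Snora74a, an H/ACA RNA, first at 666 CPM per kilobase, followed by Snora73a at 521, Rnu3a at 472 and Gm24265 at 437. Gm22009, with a length of 343 bases, ranked 7th at 389 CPM per kilobase but held the largest share of member fragments, 7.84%. The median was 69.1 CPM per kilobase for snRNA members, 36.6 for scaRNA, 19.4 for Snora and 18.5 for Snord. Of all members, 26 averaged under 1 CPM, and 81 had at least 10 fragments in every library.

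Genes were tested in 1 fit of all 17 libraries with edgeR's quasi-likelihood test, and adjusted p-values are Benjamini-Hochberg values over the 15931 genes tested, two-sided, with a threshold of 0.05. Fold changes are log2 values ± an approximate standard error, the absolute fold change divided by the square root of the test's F statistic. The low-count filter kept 128 of 129 members and removed Snora33. Just inside the membership threshold, 7 members reached 10 fragments in exactly 3 libraries, and just outside it 5 genes did so in exactly 2. Because members with few fragments may have entered through the groups where they were high, counts are also given for the 40 members with a mean of at least 10 CPM. Apart from Gm22513, each of the 40 had at least 62.3 fragments in every library.

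After 6 weeks of TAC with vehicle, small RNA genes of every class were lower than in Control. Of the 128 members tested, 49 fell and 0 rose, or 38.3%, where 20.7% of all genes were called, 10.7% higher and 9.96% lower. The median member difference was -0.71 on the log2 scale, against -0.01 for all genes tested. By class, 9 of 27 Snora, 2 of 16 Snord, 27 of 53 other snoRNA, 4 of 13 scaRNA and 7 of 19 snRNA genes fell. Of the 40 members with a mean of at least 10 CPM, 21 fell. Every TAC 6 week vehicle library lay below every Control library in 85 of 129 members, against 24.7% of all genes, and above in 0, against 14.6%.

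The scaRNA Gm25395 was measured at 28.4, 21.9 and 32.4 CPM in TAC 6 week vehicle, against 61.7, 66.6 and 46.03 CPM in Control. All 3 TAC 6 week vehicle libraries lay below all 3 Control libraries, with a log2 difference of -1.01 ± 0.14 (adjusted p = 0.000179). Its neighbour in the same host gene, Scarna6, stood at 11.1, 10.2 and 12.5 CPM in TAC 6 week vehicle and 21.6, 21.1 and 19.6 CPM in Control. It too did not overlap, at -0.81 ± 0.13 (adjusted p = 0.000479). Their host Atg16l1 had 65.1, 61.03 and 62.1 CPM in TAC 6 week vehicle and 68.4, 63.5 and 62.5 CPM in Control, a difference of 0.02 ± 0.05 (adjusted p = 0.862). The host libraries overlapped.

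Gm24119 had 30.2, 30.4 and 26.2 CPM in TAC 6 week vehicle and 57.02, 51.5 and 52.5 CPM in Control, without overlap (-0.83 ± 0.12, adjusted p = 0.000255). Gm26448 had 12.6, 13.7 and 13.2 CPM in TAC 6 week vehicle and 25.7, 24.7 and 20.3 CPM in Control, again without overlap (-0.77 ± 0.12, adjusted p = 0.000316). Its host Rpsa went the other way, with 125, 135 and 118 CPM in TAC 6 week vehicle and 107, 112 and 108 CPM in Control (0.27 ± 0.07, adjusted p = 0.014). The lowest Rpsa library of TAC 6 week vehicle lay above the highest of Control.

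Gm25788, an H/ACA-ended gene in Pabpc4, which encodes a poly(A)-binding protein, fell furthest among the 6 members with the smallest p. It had 12.6, 11.7 and 12.5 CPM in TAC 6 week vehicle and 37.8, 33.1 and 30.4 CPM in Control (-1.39 ± 0.21, adjusted p = 0.000274), and 2 annotated genes lie within 5 edits of it. Gm23442, in Prrc2a, had 5.96, 5.89 and 4.90 CPM in TAC 6 week vehicle and 13.1, 10.1 and 9.35 CPM in Control (-0.90 ± 0.14, adjusted p = 0.000365). Neither overlapped between the groups. The host Prrc2a also fell, by -0.33 ± 0.10 (adjusted p = 0.0267). It had 62.2, 77.3 and 70.3 CPM in TAC 6 week vehicle and 90.9, 88.2 and 97.5 CPM in Control, without overlap. The host Pabpc4 did not pass (0.19 ± 0.07, adjusted p = 0.0649), nor did Slc25a3, the host of Gm24119 (-0.20 ± 0.10, adjusted p = 0.155). The large scaRNAs did not pass the test: Gm22009 had 129, 129 and 125 CPM in TAC 6 week vehicle and 144, 131 and 146 CPM in Control (-0.07 ± 0.07, adjusted p = 0.473), although its libraries did not overlap, and Scarna2 had a difference of -0.07 ± 0.12 (adjusted p = 0.711).

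Rnu3a had 60.3, 71.3 and 55.8 CPM in TAC 6 week vehicle and 120.1, 115 and 92.8 CPM in Control (-0.74 ± 0.15, adjusted p = 0.00207), without overlap. The Snora73 pair, with which U3 shares a role in precursor cleavage, missed the threshold: Snora73a differed by -0.30 ± 0.11 (adjusted p = 0.0566) and Snora73b by -0.21 ± 0.11 (adjusted p = 0.206). Snora74a differed by -0.21 ± 0.13 (adjusted p = 0.25).

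Genes with lower levels also fell. The 9 Snora genes that fell, named here after their values were seen, were Snora78, Snora7a, Snora21, Snora26, Snora3, Snora5c, Snora30, Snora64 and Snora31, with differences from -1.82 ± 0.39 for Snora3 to -0.83 ± 0.23 for Snora26. Snora78 had 11.3, 11.5 and 9.29 CPM in TAC 6 week vehicle and 27.9, 26.97 and 24.8 CPM in Control (-1.25 ± 0.26, adjusted p = 0.00266). The 2 Snord genes that fell were Snord104 (-1.27 ± 0.42, adjusted p = 0.0414) and Snord14e, which rested on 0, 3 and 1 fragments in TAC 6 week vehicle and 10, 15 and 5 in Control. The other 2 scaRNA genes that fell were Scarna3a (-1.37 ± 0.32, adjusted p = 0.00581) and Gm25492 (-1.08 ± 0.26, adjusted p = 0.00749).

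The 7 snRNA genes that fell were Rnu12, Gm24265, Gm24407, Gm25099, Gm25541, Gm24871 and Gm23686. Rnu12 had 9.30, 9.48 and 7.55 CPM in TAC 6 week vehicle and 17.98, 17.3 and 14.96 CPM in Control (-0.87 ± 0.19, adjusted p = 0.00418). Gm24265 had 44.6, 45.4 and 38.4 CPM in TAC 6 week vehicle and 82.7, 70.6 and 66.4 CPM in Control (-0.71 ± 0.14, adjusted p = 0.0024). Its copy Gm24407 also fell (-0.64 ± 0.18, adjusted p = 0.018). Rnu12 and Gm24265 were without overlap between the groups.

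Part of this comparison moved with library total, which was at least 13.075 M in TAC 6 week vehicle and at most 9.901 M in Control. With the library total as a covariate, 4 members were called in place of 49 and the median difference was -0.18. Control libraries spanned only 9.453 to 9.901 M fragments, so within this contrast depth and group cannot be told apart. Omitting TAC 6 week vehicle 3 left 31 calls, and omitting any other library of these groups left 33 to 47.

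At 1 week of TAC with vehicle, a few members differed from Control, in both directions. Of 128 members 7 were called, 5.47%, where 14.8% of all genes were called, 8.91% higher and 5.92% lower, and the median member difference was -0.33. Among the 40 members with a mean of at least 10 CPM, 6 were called, 2 higher and 4 lower. The 2 that rose were snRNA genes: Gm25360 had 28.7, 25.9, 31.3 and 33.2 CPM in TAC 1 week vehicle and 17.5, 17.4 and 17.9 CPM in Control (0.74 ± 0.19, adjusted p = 0.017), and Gm22973 had 25.1, 21.6, 30.8 and 29.5 CPM in TAC 1 week vehicle and 16.7, 16.5 and 15.4 CPM in Control (0.71 ± 0.22, adjusted p = 0.0405). For both, no TAC 1 week vehicle library overlapped Control. Over all members, 4 were apart upward and 26 downward between these groups, against 17.5% and 13.7% of all genes. Gm25939, an snRNA gene of the same length, was not called (0.17 ± 0.21, adjusted p = 0.621); it was picked for its sequence after its values were seen.

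The 5 members that fell at 1 week were Gm24119, Gm23946, Snord17, Scarna13 and Snora69. Snord17, a C/D RNA, had 49.2, 46.9, 44.03 and 38.8 CPM in TAC 1 week vehicle and 55.6, 57.7 and 59.3 CPM in Control (-0.39 ± 0.11, adjusted p = 0.0262). Scarna13, hosted by the noncoding gene Snhg10, had 22.2, 24.1, 23.3 and 25.98 CPM in TAC 1 week vehicle and 30.7, 32.4 and 26.4 CPM in Control (-0.34 ± 0.10, adjusted p = 0.0385). Neither overlapped. Gm24119 differed by -0.41 ± 0.11 (adjusted p = 0.0238) and Gm23946, which shares 104 of its 197 bases with Timm23 exons, by -0.58 ± 0.16 (adjusted p = 0.0258). Snora69 rested on 3, 3, 2 and 1 fragments in TAC 1 week vehicle and 5, 9 and 7 in Control (adjusted p = 0.0478). With library total as a covariate 26 members were called, more than the 4 at 6 weeks under the same covariate, so the order of these 2 counts depended on it. With only these groups in the fit 22 were called. Leaving out 1 library gave 0 calls without TAC 1 week vehicle 4, 1 without Control 1, 2 without Control 2, Control 3 or TAC 1 week vehicle 3, 3 without TAC 1 week vehicle 1 and 18 when replicate 2 of that group was omitted.

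Between the times, members of every class were called lower in TAC 6 week vehicle than in TAC 1 week vehicle. For the Snord class this was 1 of 16 genes, Snord14e, which rested on few fragments. Of 128 members 17 fell and 0 rose, 13.3%, where 12.1% of all genes were called, 6.18% higher and 5.9% lower, and the median member difference was -0.42. Among the 40 members with a mean of at least 10 CPM, 13 fell. In 40 members every TAC 6 week vehicle library lay below every TAC 1 week vehicle library and in 1 above, against 17.9% and 5.37% of all genes. The snRNA genes that had risen at 1 week were among the 17: Gm25360 had 11.4, 11.7 and 12.1 CPM in TAC 6 week vehicle and 28.7, 25.9, 31.3 and 33.2 CPM in TAC 1 week vehicle (-1.26 ± 0.19, adjusted p = 0.00102), and Gm22973 differed by -1.18 ± 0.22 (adjusted p = 0.00297). Rnu3a had 60.3, 71.3 and 55.8 CPM in TAC 6 week vehicle and 120.1, 125, 126 and 112 CPM in TAC 1 week vehicle (-0.87 ± 0.14, adjusted p = 0.00119). None of these 3 overlapped. Gm26448 (-0.69 ± 0.11) and Gm25395 (-0.74 ± 0.14) were also called, with adjusted p of 0.00122 and 0.00231.

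Snord14e, a C/D gene that lies whole within an exon of Hspa8, passed in this comparison on 0, 3 and 1 fragments in TAC 6 week vehicle and 11, 10, 13 and 10 in TAC 1 week vehicle (adjusted p = 0.00506). At these counts its fitted fold change depends on the prior count and is not given. With library total as a covariate 0 of 128 members were called and the median turned to 0.17. Leaving out 1 library gave 8 to 24 calls, the lowest without TAC 6 week vehicle 3 and the highest when TAC 1 week vehicle 4 was omitted. Omitting TAC 1 week vehicle 3 left 9, and omitting replicate 1 or 2 of that group left 11.

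With 6 weeks of SR9009, the members called higher than in vehicle came from 4 of the 5 classes. They made up a large part of the few genes that changed. Of 128 members 13 rose and 0 fell, 10.2%, where 0.169% of all genes were called, 0.119% higher and 0.0502% lower, so that 48.1% of the 27 called genes were members. The median member difference was 0.79 on the log2 scale, against 0.00 for all genes tested, and 124 of 128 differences were positive. Class medians were 0.81 for Snora, 0.84 for Snord, 0.80 for other snoRNA, 0.63 for scaRNA and 0.84 for snRNA. Among Snord genes 16 of 16 differences were positive, although 0 passed. By class, 1 of 27 Snora, 0 of 16 Snord, 8 of 53 other snoRNA, 2 of 13 scaRNA and 2 of 19 snRNA genes rose, 12 of them among the 40 members with a mean of at least 10 CPM. In 75 of 129 members every TAC 6 week SR9009 library lay above every TAC 6 week vehicle library, against 9.33% of all genes, and in 0 members the libraries were apart the other way, against 9.79%.

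**Figure D3:**
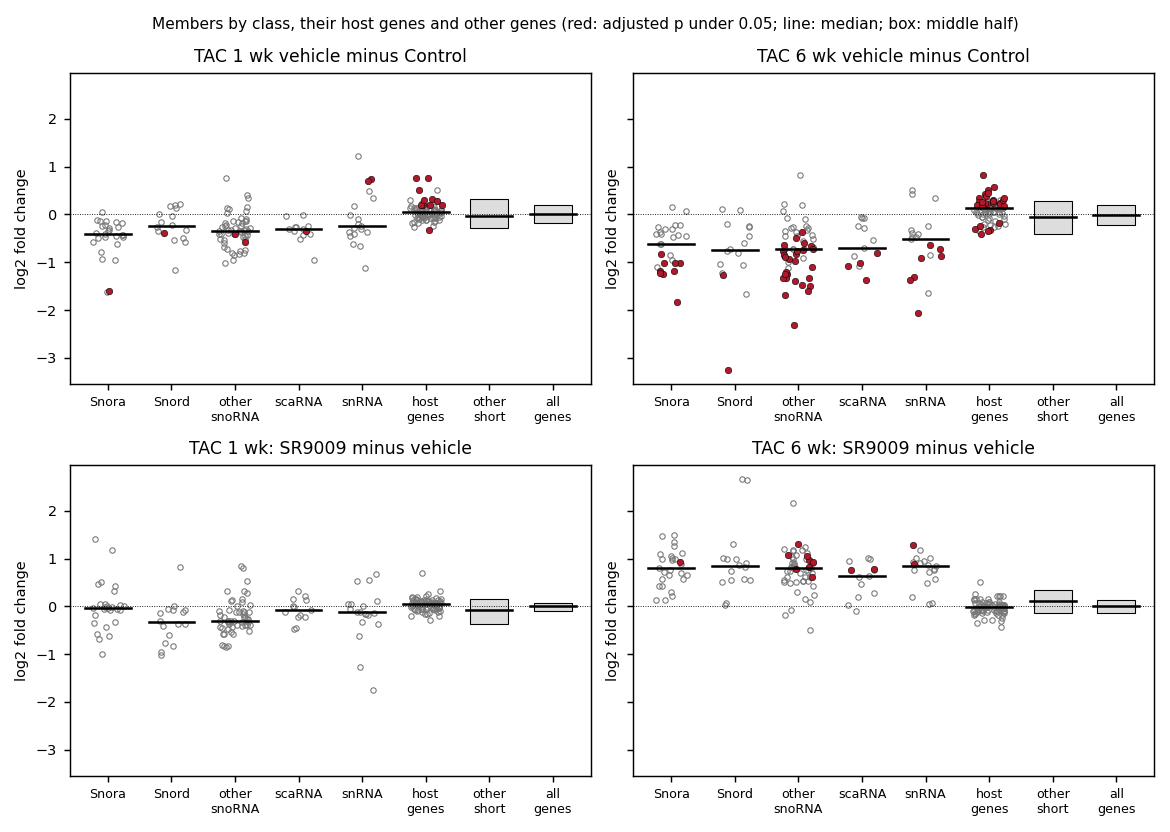
Log2 fold changes of members by class and of their host genes in 4 comparisons, 1 point per gene (red: adjusted p under 0.05; line: median), with boxes for the interquartile range of other short genes and of all genes. Member medians lie at -0.71 for TAC 6 week vehicle minus Control and 0.79 for SR9009 minus vehicle at 6 weeks, while host genes lie at 0.13 and -0.01.

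Gm26448 had 26.8, 27.1 and 21.8 CPM in TAC 6 week SR9009 and 12.6, 13.7 and 13.2 CPM in TAC 6 week vehicle. The groups did not overlap, with a log2 difference of 0.93 ± 0.12 (adjusted p = 0.00285). Gm24119 had 54.1, 64.5 and 50.9 CPM in TAC 6 week SR9009 and 30.2, 30.4 and 26.2 CPM in TAC 6 week vehicle (0.97 ± 0.12, adjusted p = 0.00285), also without overlap. Their hosts did not pass: Rpsa had 136, 116 and 127 CPM in TAC 6 week SR9009 and 125, 135 and 118 CPM in TAC 6 week vehicle (0.01 ± 0.07, adjusted p = 0.974), and Slc25a3 averaged 1149 ± 37.8 CPM in TAC 6 week SR9009 and 1035 ± 79.3 CPM in TAC 6 week vehicle (SD, n = 3 each), with a log2 difference of 0.15 ± 0.10 (edgeR adjusted p = 0.478).

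The snRNA gene Gm24265 had 71.5, 102 and 63.5 CPM in TAC 6 week SR9009 and 44.6, 45.4 and 38.4 CPM in TAC 6 week vehicle (0.89 ± 0.14, adjusted p = 0.0208). Its copy Gm24407, which differs by G88A and C99A, had 56.9, 86.8 and 48.99 CPM in TAC 6 week SR9009 and missed the threshold against 39.6, 37.7 and 35.6 CPM in TAC 6 week vehicle (0.77 ± 0.18, adjusted p = 0.0893). Neither gene overlapped between the groups, and the second TAC 6 week SR9009 library was the highest for both.

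Gm22422, an ACA-ended gene in an intron of Trmt10c, which encodes a mitochondrial tRNA methyltransferase, had 21.4, 26.4 and 12.96 CPM in TAC 6 week SR9009 and 9.45, 7.42 and 7.61 CPM in TAC 6 week vehicle (1.30 ± 0.21, adjusted p = 0.0208). Gm23262, which shares 150 of its 168 bases with exons of the translation factor gene Eif4g2, had 60.5, 75.9 and 57.5 CPM in TAC 6 week SR9009 and 42.5, 44.96 and 39.3 CPM in TAC 6 week vehicle (0.61 ± 0.10, adjusted p = 0.0211). Eif4g2 itself differed by -0.03 ± 0.06 (adjusted p = 0.86) and Trmt10c by -0.01 ± 0.08 (adjusted p = 0.986). Both small RNA genes were without overlap between the groups.

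Of the Cajal body RNAs, Scarna6 had 21.9, 16.6 and 19.8 CPM in TAC 6 week SR9009 and 11.1, 10.2 and 12.5 CPM in TAC 6 week vehicle (0.78 ± 0.13, adjusted p = 0.0211). Gm25395 had 52.3, 43.3 and 45.9 CPM in TAC 6 week SR9009 and 28.4, 21.9 and 32.4 CPM in TAC 6 week vehicle (0.77 ± 0.14, adjusted p = 0.0389). Neither overlapped, while their shared host Atg16l1 had 65.4, 61.9 and 65.1 CPM in TAC 6 week SR9009 and 65.1, 61.03 and 62.1 CPM in TAC 6 week vehicle (0.03 ± 0.05, adjusted p = 0.83). The remaining 11 scaRNA genes did not pass. Their log2 differences ran from -0.10 ± 0.07 for Gm22009 to 1.01 ± 0.26 for Gm25492, with 0.19 ± 0.12 for Scarna2, 0.03 ± 0.11 for Scarna13, 0.77 ± 0.26 for Gm26083, 0.29 ± 0.22 for Gm22442 and 0.47 ± 0.20 for Gm23119. Scarna17 (0.62 ± 0.26), Scarna3a (0.63 ± 0.33), Scarna3b (1.00 ± 0.45) and Gm22767 (0.95 ± 0.41) lay between these.

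Rnu3a had 125, 117 and 91.8 CPM in TAC 6 week SR9009 and 60.3, 71.3 and 55.8 CPM in TAC 6 week vehicle and was called (0.83 ± 0.14, adjusted p = 0.03). Gm26447, whole within an exon of Eif4a2, had 74.5, 94.6 and 49.9 CPM in TAC 6 week SR9009 and 33.6, 35.8 and 34.8 CPM in TAC 6 week vehicle and was called (1.07 ± 0.19, adjusted p = 0.03). Snord15b, whole within an Rps3 exon, had 74.02, 93.3 and 46.7 CPM in TAC 6 week SR9009 and 33.9, 36.9 and 35.6 CPM in TAC 6 week vehicle and just missed (1.00 ± 0.20, adjusted p = 0.0523). None of the 3 overlapped between the groups. Snora73b (0.57 ± 0.11), Snord17 (0.55 ± 0.11), Snord22 (1.00 ± 0.21) and Rnu12 (0.90 ± 0.19) had adjusted p of 0.0504, 0.0702, 0.0734 and 0.0734.

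The remaining 4 genes that rose were Gm23442, Gm22486, Gm25541 and Snora68. Snora68 had 16.3, 16.3 and 11.01 CPM in TAC 6 week SR9009 and 8.14, 7.95 and 6.65 CPM in TAC 6 week vehicle (0.94 ± 0.18, adjusted p = 0.0389). Gm25541 had 14.4, 22.1 and 10.3 CPM in TAC 6 week SR9009 and 7.20, 6.50 and 5.48 CPM in TAC 6 week vehicle (1.28 ± 0.24, adjusted p = 0.0389). None of the 4 overlapped. The 4 members with differences below 0, named after their values were seen, were Gm22009 (-0.10 ± 0.07), Gm23455 (-0.08 ± 0.29), Scarna9 (-0.18 ± 0.33) and Gm24029 (-0.49 ± 0.51), with adjusted p from 0.507 to 0.928.

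The count of calls depended on single libraries and on the fit. Omitting 1 TAC 6 week SR9009 library left 2 calls (replicate 1), 3 (replicate 2) or 31 (replicate 3). Omitting 1 TAC 6 week vehicle library left 37 (replicate 1), 2 (replicate 2) or 5 (replicate 3). DESeq2 called 34 members, and without the 3 libraries that earlier work set apart (TAC 6 week vehicle 1, TAC 1 week SR9009 2 and Control 2) edgeR called 45. With only the 2 groups in the fit 0 members were called, and with library total as a covariate 0 were called, with a median difference of 0.46.

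At 1 week, SR9009 gave no call. Of 128 members 0 passed, where 0.0% of all 15931 genes passed in edgeR, with 18 members and 1019 genes at an unadjusted p under 0.05 and 0 members called by DESeq2. The median member difference was -0.15, and 92 of 128 differences were negative. With library total as a covariate the median turned to 0.23, with 0 members called. The 3 members with the smallest p were Gm25395, Rnu12 and Gm26448. Gm25395 had 38.2, 34.8, 33.7 and 32.4 CPM in TAC 1 week SR9009 and 42.2, 55.4, 49.4 and 48.8 CPM in TAC 1 week vehicle (-0.48 ± 0.12, adjusted p = 0.435). Rnu12 had 12.3, 7.86, 9.36 and 8.41 CPM in TAC 1 week SR9009 and 14.5, 18.9, 14.9 and 10.9 CPM in TAC 1 week vehicle (-0.62 ± 0.17, adjusted p = 0.471). The groups did not overlap for Gm25395 and overlapped for Rnu12. In 4 members every TAC 1 week SR9009 library lay above every TAC 1 week vehicle library and in 3 below, against 1.27% and 2.7% of all genes.

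The SR9009 difference at 6 weeks was set against that at 1 week in the same fit. This difference of differences was called and positive in 7 of 128 members, 5.47%, where 0.119% of all genes were called and 0.0942% were positive, so that 36.8% of the 19 called genes were members. It was 1.25 ± 0.15 for Gm26448 (adjusted p = 0.00381), 1.25 ± 0.19 for Gm25395 (adjusted p = 0.0139), 1.06 ± 0.16 for Gm24119 (adjusted p = 0.0139) and 1.52 ± 0.25 for Rnu12 (adjusted p = 0.025). It was 1.14 ± 0.19 for Rnu3a (adjusted p = 0.0252), 0.99 ± 0.17 for Scarna6 (adjusted p = 0.0309) and 1.03 ± 0.19 for Gm24265 (adjusted p = 0.0365). For Rnu12 the SR9009 difference was 0.90 ± 0.19 at 6 weeks and -0.62 ± 0.17 at 1 week. The 7 called members were all among the 40 with a mean of at least 10 CPM. The median over members was 1.02, against -0.00 for all genes. Leaving out 1 library gave 1 call without TAC 6 week SR9009 1, 3 without TAC 1 week vehicle 1 or 3, and 4 without TAC 6 week SR9009 2, TAC 6 week vehicle 2 or TAC 1 week SR9009 3. It gave 19 without TAC 1 week vehicle 4, 25 without TAC 6 week SR9009 3 and 32 without TAC 6 week vehicle 1, and a library total covariate left 0. Without the same 3 libraries together it was 27.

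**Figure D4:**
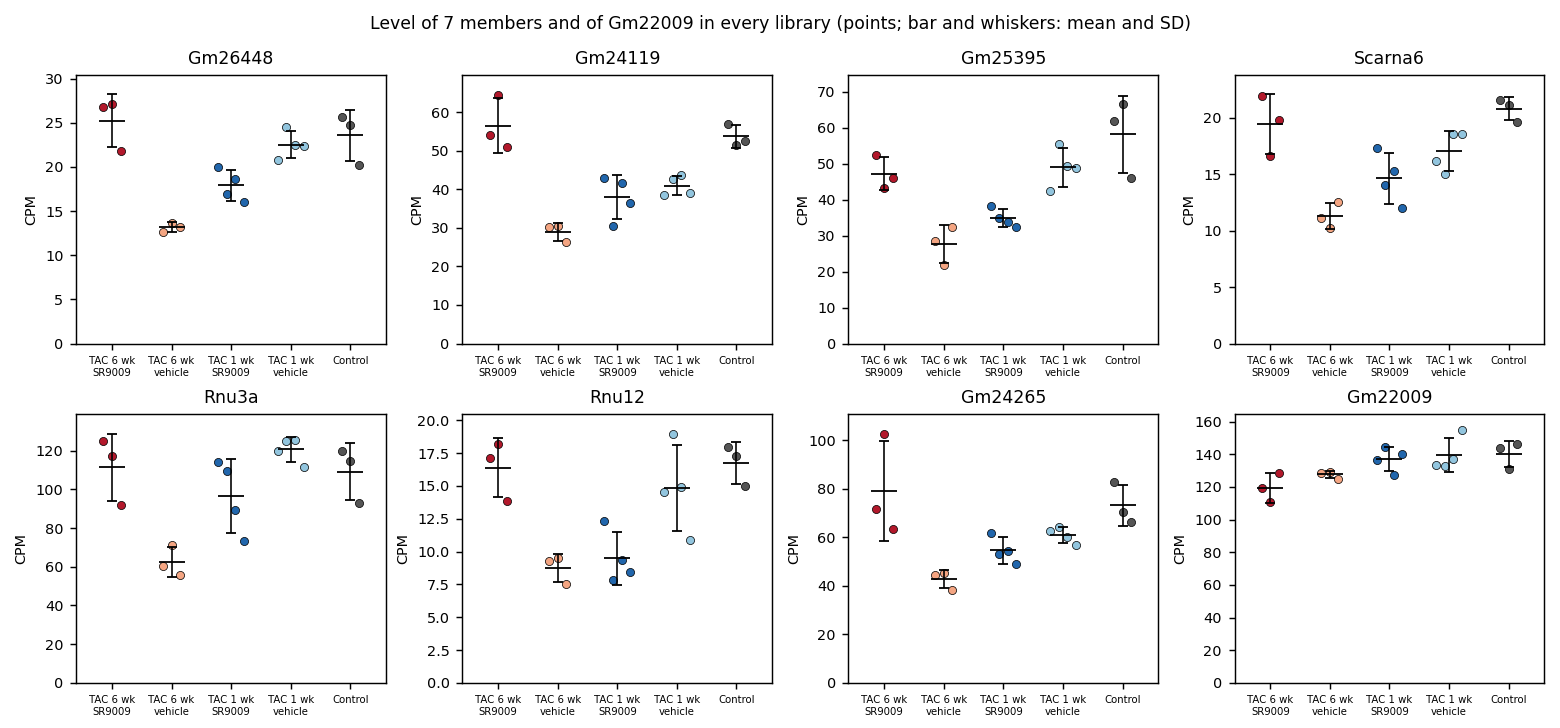
CPM in every library (points), with the group mean and SD, of the 7 members whose SR9009 difference differed between the times and of Gm22009 for comparison. In each of the 7, every TAC 6 week vehicle library lies below every TAC 6 week SR9009 and every Control library, and Gm22009 lies between 111 and 155 CPM throughout.

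Host genes differed from their small RNAs in both 6-week comparisons. Of the 78 distinct hosts in the fit, the median difference was 0.13 for TAC 6 week vehicle against Control, with 21 hosts called higher and 6 lower, and -0.01 for SR9009 against vehicle at 6 weeks, with 0 called by edgeR and 10 at an unadjusted p under 0.05. Over 96 member and host pairs, the member's difference lay below that of its host in 91 for TAC 6 week vehicle against Control. It lay above in 90 for SR9009 against vehicle at 6 weeks. In the first of these comparisons both were called in 11 pairs, 2 of them in the same direction. Members outside host exons had a median of -0.76 against Control and 0.75 with SR9009 at 6 weeks, members touching a host exon -0.72 and 0.96, and members without a host -0.51 and 0.77. Hosts were sought on the same strand only. Overlap of members with genes on the other strand was not examined, and the kit does not mark strand.

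The same was measured in other short genes. Among 126 other tested genes no longer than the longest member (414 bases), the median difference was -0.05 for TAC 6 week vehicle against Control, with 5 called higher and 5 lower, and 0.12 for SR9009 against vehicle at 6 weeks, with 0 called and 17 at an unadjusted p under 0.05. These 126 included 40 misc_RNA genes, 35 processed pseudogenes, 16 protein-coding genes and 13 miRNA genes. They are therefore not all small noncoding RNAs.

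Genes for proteins that bind or build these RNAs were examined in the same fit. Of 8 H/ACA particle proteins, 2 rose and 0 fell at 6 weeks of vehicle against Control: Nhp2 (0.50 ± 0.14, adjusted p = 0.0226) and Nop10 (0.24 ± 0.07, adjusted p = 0.027), both core subunits. Dkc1, the pseudouridine synthase itself, named for its role after its values were seen, differed by -0.07 ± 0.10 (adjusted p = 0.665). Of 13 C/D particle proteins 1 rose, the assembly helicase Ruvbl1 (0.32 ± 0.11, adjusted p = 0.0467), and the next by p was the assembly factor Nufip1 (0.26 ± 0.11, adjusted p = 0.102). Of 28 genes of ribosomal RNA transcription and processing, 8 rose and 1 fell, among them the nucleolar chaperone Npm1 (0.34 ± 0.06, adjusted p = 0.000976) and Mphosph10, a protein of the U3 particle (0.48 ± 0.09, adjusted p = 0.00155). The background for this comparison is the 20.7% of all genes given above, and the list median was 0.16.

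In the same comparison 2 rose and 1 fell of 16 Cajal body and SMN complex genes, with Strap at 0.31 ± 0.05 (adjusted p = 0.000617) and Gemin7 at 0.40 ± 0.11 (adjusted p = 0.0146). Of 16 Sm and LSm proteins 2 rose and 0 fell, of 27 snRNP specific proteins 2 rose and 2 fell, and of 26 genes of snRNA transcription and processing 2 rose and 3 fell. The Sm-type proteins Lsm3 (0.40 ± 0.09, adjusted p = 0.00462) and Snrpe (0.21 ± 0.07, adjusted p = 0.0404) rose. The spliceosome core protein Prpf8 (-0.22 ± 0.05, adjusted p = 0.00565) and the U2 particle protein Sf3a1 (-0.28 ± 0.07, adjusted p = 0.00734) fell. The Integrator subunit Ints1, which acts in snRNA end formation, fell (-0.45 ± 0.08, adjusted p = 0.0014), and Larp7, a binding protein of small nuclear RNA, rose (0.28 ± 0.07, adjusted p = 0.00706). Of 20 genes of the exosome and of small RNA decay, 2 rose and 1 fell, with the exonuclease Xrn1 at -0.18 ± 0.05 (adjusted p = 0.019) and the exosome helicase Mtrex at 0.21 ± 0.06 (adjusted p = 0.0204). Of 16 noncoding snoRNA host genes 1 rose, Snhg18 (0.66 ± 0.19, adjusted p = 0.0205), and Snhg5 came next (0.51 ± 0.21, adjusted p = 0.0908). With SR9009 at 6 weeks edgeR called 0 genes in each of these 9 lists, and between 0 and 5 per list were at an unadjusted p under 0.05. Differences were negative in 21 and positive in 7 of the 28 ribosomal RNA genes (median -0.11). For the 8 H/ACA particle proteins they were negative in 7 and positive in 1 (median -0.08). Medians of the other lists ran from -0.1 for noncoding snoRNA host genes to 0.05 for Cajal body and SMN complex genes.

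Neat1, the scaffold of paraspeckles, averaged 2410.0 ± 79.5 CPM in TAC 6 week SR9009, 1978 ± 163 CPM in TAC 6 week vehicle (SD, n = 3 each) and 2469 ± 84.9 CPM in Control (SD, n = 3). Its log2 difference with SR9009 at 6 weeks was 0.29 ± 0.09 (adjusted p = 0.155). Kcnq1ot1, an imprinted antisense RNA, fell in TAC 6 week vehicle against Control (-0.28 ± 0.07, adjusted p = 0.00642) and differed by 0.25 ± 0.07 with SR9009 at 6 weeks (adjusted p = 0.112). Of the 5 listed nuclear transcripts tested, 1 fell at 6 weeks of vehicle against Control.

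Gm22513 was the member with the widest spread inside groups. It had 56.1, 1.96 and 1.80 CPM in TAC 6 week SR9009, 32.6, 1.22 and 22.97 CPM in TAC 6 week vehicle, 0.743, 0.823, 40.8 and 35.9 CPM in TAC 1 week SR9009, 56.5, 57.1, 53.2 and 30.1 CPM in TAC 1 week vehicle and 63.1, 62.5 and 61.4 CPM in Control. Libraries near 1 or 2 CPM stood beside libraries above 20 CPM in the same group in 3 of 5 groups, and the Control libraries were the highest and closest together. Gm22513 passed in no comparison, with a log2 difference of -1.65 ± 1.04 for TAC 6 week vehicle against Control (adjusted p = 0.286). With 14 near copies annotated, the gene that gave these fragments cannot be told apart from them.

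**Figure D5:**
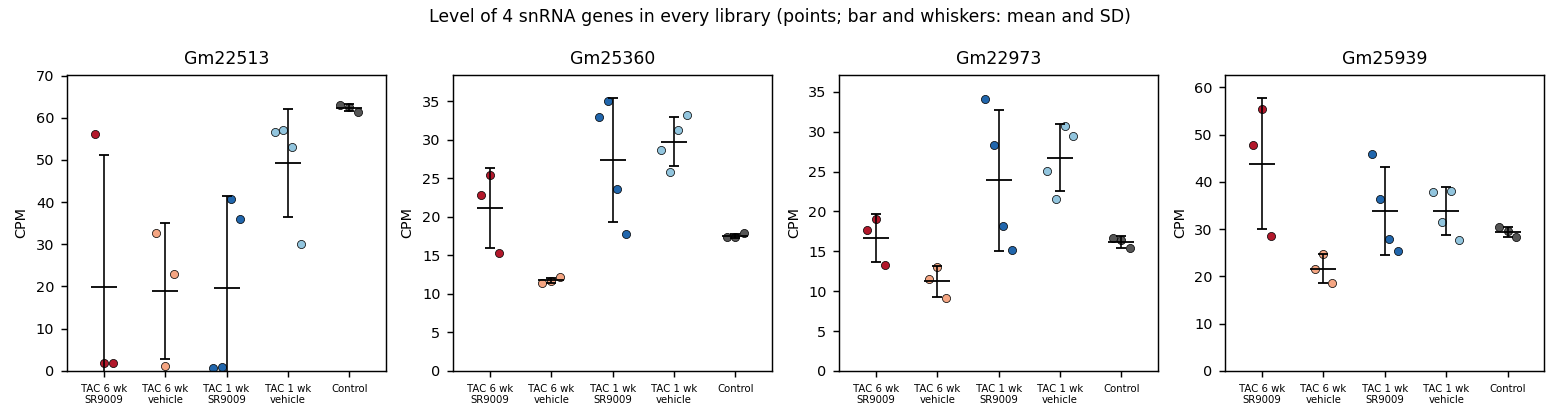
CPM of 4 snRNA genes in every library (points), with the group mean and SD. Gm22513 spans 0.743 to 63.1 CPM with high and low libraries in the same groups, while Gm25360 and Gm22973 have their highest means in the 1-week groups.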

How the data were processed

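Library preparation followed the Illumina TruSeq RNA kit, per the labels' protocols, and mm10 is the build named in the submitters' processing notes. No source used here states the aligner, counting tool, annotation or strand setting. The authors deposited 1 table per library with the columns of a Cuffdiff read-group tracking file, per the file headers. Its raw fragments are estimated counts per gene as deposited by the authors, not normalized, with 2289 to 2678 values per library that are not whole. The authors' internally and externally scaled fragments are a signal, the estimated count times 1 factor per library, and were not used. The authors' deposited FPKM values were not used either, because FPKM per CPM of the same member varied between libraries (median ratio of highest to lowest 5.66). Genes that the tool marked HIDATA in any library (78) were left out of every library, which left 41048 genes.

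Gene types came from GENCODE M21 by ID (40252 of 41126 matched). Members had at least 10 fragments in at least 3 of 17 libraries. CPM is fragments per library total over counted genes. Rounded estimated counts were fitted in R 4.3.3 with edgeR 4.0.16 (limma 3.58.1): filterByExpr, TMM scaling, 1 mean per group, quasi-likelihood F tests over 15931 genes, with Benjamini-Hochberg adjustment over all of them. DESeq2 1.42.0 was an alternative. The fit was tested on simulated counts. Tables and figures were made in Python 3.11.15 with pandas 2.3.3 and numpy 2.4.6. Library totals ran from 8.474 to 15.498 M fragments, which limits members with few fragments most. Host genes are the annotated genes on the same strand that contain the member. The members, lists and tests were chosen with earlier results of these data known. Genes named are every scaRNA member, the 3 highest of each other class, all calls of a comparison or its 6 strongest per direction, their hosts, and the 2 strongest genes of each protein list with a call; others are said to be chosen after their values were seen or complete a count. The alternatives cover scaling, tool, low-count filter, groups in the fit, replicate block, library total as a covariate, omitted libraries, TMM totals and highest member for class sums, near copies and host exons.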

Additional observations from a re-analysis of the deposited data

Results flagged for a closer look

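For 7 members the SR9009 difference at 6 weeks differed from that at 1 week by edgeR's quasi-likelihood test of the difference itself. On the log2 scale it was 1.25 for Gm26448 (adjusted p = 0.00381), 1.25 for Gm25395 (adjusted p = 0.0139), 1.06 for Gm24119 (adjusted p = 0.0139), 1.52 for Rnu12 (adjusted p = 0.025), 1.14 for Rnu3a (adjusted p = 0.0252), 0.99 for Scarna6 (adjusted p = 0.0309) and 1.03 for Gm24265 (adjusted p = 0.0365). Library totals moved with these groups: TAC 6 week vehicle libraries were deeper than 2 of the 3 TAC 6 week SR9009 libraries, and with library total as a covariate 0 members were called.

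Gm22513 stood at 30.13 CPM in TAC 1 week vehicle 4, far from the other 3 libraries of its group at 53.17 to 57.05 CPM. The gap was 0.856 of the group's range, above Dixon's critical value at 95%. This was 1 of 82 groups of 4 libraries examined, where about 1 in 20 would be flagged by chance.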

How the results depend on the processing

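Library total as a covariate turned the sign of 2 member medians: TAC 6 week against TAC 1 week vehicle, -0.42, became 0.17, and SR9009 against vehicle at 1 week, -0.15, became 0.23, both with 0 members called. It also turned the order of the counts against Control, with 26 calls at 1 week and 4 at 6 weeks. The cause of the changes given here was not tested. For TAC 1 week vehicle against Control the 7 calls became 12 with no filter, 22 with only these groups, 2 with a replicate block and 26 with library total as a covariate. For TAC 6 week vehicle against Control the 49 became 4 with the covariate and 31 among members with no base in a host exon, where fewer genes count. For TAC 6 week against TAC 1 week vehicle the 17 became 26 without TMM, 26 with a replicate block and 0 with the covariate. For SR9009 against vehicle at 6 weeks the 13 became 34 with DESeq2, 34 with no filter, 0 with only these groups, 0 with the covariate and 45 without the 3 libraries set apart. For the difference between the times the 7 became 11 without TMM, 31 with DESeq2, 26 with no filter, 3 with only these groups, 3 with a replicate block, 0 with the covariate and 27 without the 3 libraries. Omitting 1 library gave 0 to 18, 31 to 47, 8 to 24, 2 to 37 and 1 to 32 calls in these comparisons in that order, and 0 for SR9009 against vehicle at 1 week. Summed CPM against Control at 6 weeks of vehicle was, on the log2 scale, -0.37 for Snord with TMM totals and -0.5 without Snord17, and -0.29 and -0.53 for scaRNA with TMM totals and without Gm22009. The scaRNA sum for TAC 6 week against TAC 1 week vehicle was -0.16 and -0.34 in the same settings, and for SR9009 at 6 weeks 0.43 without Gm22009. All member sequences are unique, so restricting members to unique sequences could not change a count and does not address near copies.

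Replicate numbers are shared between groups but did not pair libraries: deviations from group means correlated at -0.395 to 0.24 for same-numbered libraries and -0.27 to 0.348 for the others. With the replicate block, 49 members were called for TAC 6 week vehicle against Control and 9 for SR9009 at 6 weeks. Depth limits the 26 members under 1 CPM, and totals that differ between groups cannot be told apart from time and treatment in most contrasts.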
